A study of Mus musculus with 6 samples.

Results

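The 9 genes described here break down the aromatic amino acids in liver, and were measured in livers of mice exposed or not exposed to the plasticizer DEHP, a phthalate ester. They were taken by gene name from the deposited count table, where all 9 had exactly 1 row among 41096 rows with a gene name. The kynurenine to NAD branch held 5 of them, Tdo2, Kmo, Kynu, Haao and Acmsd, and the phenylalanine and tyrosine branch held 4, Tat, Hpd, Hgd and Fah. There were 3 libraries of polyadenylated RNA from DEHP-exposed livers and 3 from livers without DEHP, called controls here. The labels give no strain, age, sex, dose or duration for either group, and they do not say whether the libraries of a group came from separate animals, so p-values measure the spread between these libraries.

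The liver takes up most dietary tryptophan, phenylalanine and tyrosine that is not used for protein. Tryptophan is opened to kynurenine and then carried to an unstable intermediate at which the path divides: left alone it closes to quinolinate, a precursor of NAD, while decarboxylation sends the carbon towards complete oxidation. Phenylalanine is hydroxylated to tyrosine, which is transaminated, oxidised to homogentisate and finally cleaved to fumarate and acetoacetate. In rats, phthalate esters and other peroxisome proliferators are known to alter the flow of tryptophan to niacin.

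To show the DNA that lies before these genes, the stretch from 250 to 11 bases before the annotated start was read from RefSeq (GRCm38.p6), which had an entry for 8 of the 9 genes and none for Kynu. The windows of Hpd, Tat and Fah are printed because they hold no annotated exon in GENCODE M21. Within the tyrosine path, they also set a gene with a higher mean under DEHP (Hpd) beside genes whose group means lay close together (Tat and Fah). The libraries of Tat were spread widely within each group. Capitals mark any of 6 short motifs on either strand.
Hpd, chr5:123182734-123182973, minus strand: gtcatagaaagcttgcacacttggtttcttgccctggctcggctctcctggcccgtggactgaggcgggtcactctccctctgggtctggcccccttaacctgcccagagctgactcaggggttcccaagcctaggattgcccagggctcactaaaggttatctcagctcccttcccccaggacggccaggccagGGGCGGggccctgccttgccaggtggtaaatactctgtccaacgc
Tat, chr8:109990186-109990425, plus strand: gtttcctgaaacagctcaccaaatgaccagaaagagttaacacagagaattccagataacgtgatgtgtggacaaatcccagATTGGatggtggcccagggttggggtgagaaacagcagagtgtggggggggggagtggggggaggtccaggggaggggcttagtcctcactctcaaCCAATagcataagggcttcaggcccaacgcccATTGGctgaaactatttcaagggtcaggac
Fah, chr7:84605953-84606192, minus strand: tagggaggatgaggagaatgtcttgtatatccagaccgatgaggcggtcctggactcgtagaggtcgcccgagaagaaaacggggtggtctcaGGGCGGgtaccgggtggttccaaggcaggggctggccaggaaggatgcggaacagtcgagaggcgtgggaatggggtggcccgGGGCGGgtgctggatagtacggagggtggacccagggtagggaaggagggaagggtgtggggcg
The motifs searched were AGGTCA, the core letters bound by many nuclear receptors including PPARalpha, then TGTTCT for the glucocorticoid receptor, GTTAAT for the liver factor HNF1, and the general promoter elements TATAAA (the TATA box), CCAAT (the CCAAT box) and GGGCGG (the GC box). AGGTCA was found in 3 of the 8 windows, those of Haao and Hgd among them, and in 13.5% of 32851 promoter windows of the same length. CCAAT was found 3 times before Tat and also before Hgd and Tdo2, against 33.0% of all windows, and GGGCGG was found before Hpd and, at 2 places, before Fah, against 31.3%. Among the 8, the glucocorticoid receptor letters (15.5% of all windows) and the HNF1 letters (6.26%) occurred only before Haao. The letters TATAAA (12.1%) occurred 229 to 224 bases before the start of Tdo2. They also occurred 139 to 134 bases before that of Hgd, on the opposite strand. A match is a description of the letters and not of binding. The searched letters of different motifs did not overlap in these windows. GC content was 63.8% before Fah and 62.1% before Hpd and 53.3% before Tat, against a median of 52.1% over all windows. The windows of Tdo2, Kmo and Haao overlap an annotated exon of the gene itself in GENCODE M21 and are not printed.

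Total counts were 10410098 to 12405044 in DEHP libraries and 12001969 to 14229803 in controls. Hepatocyte markers were abundant in all 6 libraries, with albumin at 757743 to 1073195 counts under DEHP and 950610 to 1219779 in controls. Markers of kidney tubule, another tissue that makes Acmsd and Kmo, were at or near 0, with no more than 5 counts for any of 7 genes in any library. The libraries of the control group differed among themselves. Over all genes, the chi-square of the counts per degree of freedom was 27.2, 51.7 and 44.5 between control replicate 3 and DEHP replicates 1 to 3, and 81.1 and 51.7 between control replicate 3 and control replicates 1 and 2, so that library was no closer to its own group than to the DEHP libraries. The controls also differed in 3 gene groups. Summed over 22 interferon-stimulated genes, the level was 452, 399 and 445 CPM (counts scaled to library size) in DEHP replicates 1 to 3, and 4364, 3491 and 423 CPM in control replicates 1 to 3. Summed over 13 macrophage and Kupffer cell markers it was 308, 437 and 369 CPM under DEHP and 916, 838 and 300 CPM in controls. Summed over 18 targets of PPARalpha, the receptor through which peroxisome proliferators act, it was 11952 to 12124 CPM under DEHP and 6326, 7622 and 11372 CPM in controls. In all 3 sums control replicate 3 lay nearest to the DEHP libraries. At an unadjusted p of 0.05, 19 of the 22 interferon-stimulated genes and 5 of the 13 macrophage markers were lower under DEHP, against 6.97% of all genes tested. Their median log2 fold changes were -2.89 and -0.87. Of the 18 PPARalpha targets 10 were higher and 1 lower (median 0.61), against 6.11% and 6.97% of all genes tested. Among these targets Cd36, a fatty acid carrier, rose by 2.26 ± 0.22 on the log2 scale (SE, edgeR adjusted p = 3.51e-04). Without control replicates 1 and 2 the medians were 0.30 for interferon-stimulated genes and 0.19 for PPARalpha targets. The part of these differences in the results that follow was not tested. In whole tissue, fewer cells of a type and less RNA per cell cannot be told apart.

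The comparison addressed how each branch differed with DEHP. None of the 9 genes passed an adjusted p of 0.05 (edgeR's quasi-likelihood test, adjusted over 12468 genes, of which 9, or 0.0722%, passed, 0.0561% as higher and 0.016% as lower). At an unadjusted p of 0.05, 4 of the 9 were higher under DEHP, namely Tdo2, Acmsd, Hpd and Kmo, and 0 were lower, while of all genes tested 13.1% passed, 6.11% as higher and 6.97% as lower. With control replicate 1 left out the number of members higher at that threshold was 1, as it was with either DEHP replicate 2 or 3 left out. That number was 2 without control replicate 2, 3 without control replicate 3 and 4 without DEHP replicate 1. Over all genes tested, 443 of 12783, 656 of 12840 and 986 of 12890 were higher without control replicates 1, 2 and 3 in turn. Without DEHP replicates 1, 2 and 3 in turn, 919 of 12922, 476 of 12945 and 520 of 12908 were higher, against 762 of 12468 with all libraries. DESeq2 called 272 of 12468 genes at an adjusted p of 0.05, among them 1 member, Tdo2. Limma-voom called 2 genes and 0 members.

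Tdo2, tryptophan dioxygenase, which opens the tryptophan ring as the first and rate-limiting step in liver, had the largest log2 fold change of the 9 with all libraries, while that of Acmsd was larger without control replicate 1, DEHP replicate 1 or both of control replicates 1 and 2. It had 1045, 1594 and 1192 CPM in DEHP replicates 1 to 3, against 345, 633 and 848 CPM in control replicates 1 to 3. All 3 DEHP libraries lay above all 3 controls, which 9.17% of all genes tested did (8.57% had DEHP below and 17.7% either), and no other member had groups that did not overlap. The mean was 1277 ± 284 CPM under DEHP and 609 ± 252 CPM in controls (SD, n = 3), 2.10 times as high, and the log2 fold change was 1.07 ± 0.30 (SE, adjusted p = 0.200). Tdo2 spans chromosome 3 from 84860413 to 84877028 on the minus strand in the table's C57BL/6NJ coordinates. Without control replicate 3, a fit that called 400 of 12890 genes, the log2 fold change was 1.41 (edgeR adjusted p = 0.00988), and with DESeq2 1.09 (0.0146). Against control replicate 3 alone it was 0.61 (0.988), a fit in which that lone control is assumed to vary like the DEHP libraries.

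Kmo, the mitochondrial monooxygenase that hydroxylates kynurenine, had 269, 403 and 340 CPM under DEHP, against 211, 274 and 252 CPM in controls. Replicate 1 was the lowest library of each group, and DEHP replicate 1 fell among the controls. Its log2 fold change was 0.46 ± 0.21 (SE, adjusted p = 0.373). Kmo overlaps Fh1, the fumarase gene, on the other strand. Fh1 had a log2 fold change of 0.10 ± 0.23. Since no source used here states whether counting used strand, reads of the shared stretch cannot be assigned with certainty.

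Kynu, kynureninase, which cuts hydroxykynurenine to hydroxyanthranilate, had 91.3, 148 and 139.7 CPM under DEHP, against 87.9, 146 and 204 CPM in controls. The groups overlapped almost completely, with control replicate 3 highest and control replicate 1 lowest. Kynu had a log2 fold change of -0.21 ± 0.29 (SE, adjusted p = 0.810), and it was 0.14 without control replicate 3. Haao, the dioxygenase that makes the unstable intermediate at the fork, had 672, 557 and 657 CPM under DEHP, against 732, 644 and 615 CPM in controls. Its libraries were the most even of this branch, within a factor of 1.21 in DEHP livers and 1.19 in controls. The log2 fold change was -0.08 ± 0.19 (SE, adjusted p = 0.899).

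Acmsd, the decarboxylase that draws the intermediate away from quinolinate and NAD, had 21.6, 76.0 and 49.1 CPM under DEHP, against 22.1, 25.8 and 30.8 CPM in controls. DEHP replicate 1 was below every control, while the other DEHP libraries were above all of them. The log2 fold change was 0.90 ± 0.39 (SE, adjusted p = 0.378), and it was 0.44 without DEHP replicate 2 and 1.28 without DEHP replicate 1. The coefficient of variation among DEHP libraries was 55.7%, larger than for 90.8% of genes tested, against 16.7% among controls. With 213 to 871 counts a library, Acmsd was the least abundant member. It spans chromosome 1 from 135876184 to 135913981 on the plus strand in the table's coordinates, and an antisense transcript in the same span held at most 7 counts.

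**Figure D1:**
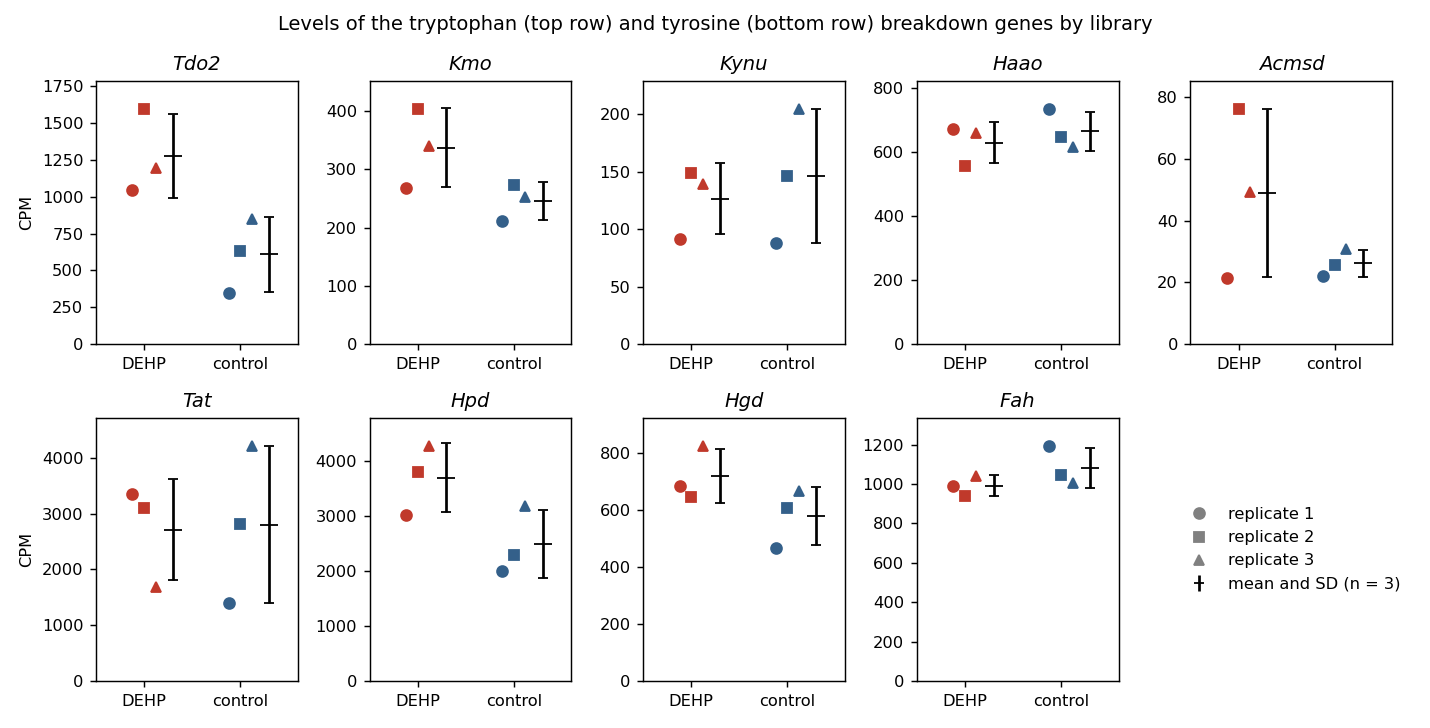
Level of each gene in CPM (vertical axes, from 0) in the 3 DEHP and 3 control libraries, with the tryptophan branch in the top row and the tyrosine branch in the bottom row; marker shape gives the replicate number and bars the mean and SD. Tdo2 is the gene whose groups are apart, with 1045 to 1594 CPM under DEHP against 345 to 848 CPM in controls.

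On the tyrosine path, Tat, tyrosine aminotransferase, a gene induced by glucocorticoids, had 3356, 3106 and 1685 CPM under DEHP, against 1391, 2808 and 4217 CPM in controls. It varied most among controls, with 3.03 times as much in control replicate 3 as in control replicate 1, and its groups overlapped throughout. For Tat the log2 fold change was -0.05 ± 0.40 (SE, adjusted p = 0.973), 0.40 without control replicate 3 and -0.37 without control replicate 1.

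Hpd, the dioxygenase that turns hydroxyphenylpyruvate into homogentisate, had 3014, 3790.5 and 4265 CPM under DEHP, against 2000.1, 2285 and 3169 CPM in controls. DEHP replicate 1 lay below control replicate 3, so the groups overlapped by 1 library each. The log2 fold change was 0.57 ± 0.23 (SE, adjusted p = 0.329), and 0.81 without control replicate 3 (0.0784). Hpd spans chromosome 5 from 131753110 to 131763989 on the minus strand. It overlaps Psmd9, a proteasome assembly gene on the other strand that held 567 to 840 counts, against 28219 or more for Hpd.

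Hgd, homogentisate dioxygenase, had 684, 645 and 825 CPM under DEHP, against 468, 608 and 666 CPM in controls. Only DEHP replicate 2 fell within the range of the controls, and the log2 fold change was 0.31 ± 0.20 (SE, adjusted p = 0.554), and 0.17 without control replicate 1 and 0.20 without DEHP replicate 3. Fah, fumarylacetoacetase, the last step of the path, whose loss causes hereditary tyrosinemia type I in humans, had 991, 937 and 1042 CPM under DEHP, against 1193, 1046 and 1002 CPM in controls. Its coefficient of variation was 5.33% among DEHP libraries and 9.24% among controls, the smallest of the 9 genes under DEHP. For Fah the log2 fold change was -0.13 ± 0.19 (SE, adjusted p = 0.818), and -0.048 without control replicate 1 and -0.076 without DEHP replicate 2.

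Set side by side, the median log2 fold change was 0.46 over the 5 genes of the kynurenine branch and 0.13 over the 4 genes of the tyrosine branch, against -0.03 over all 12468 genes. The difference between the branch medians was 0.33, and it ran from 0.08 without control replicate 3 to 0.49 without DEHP replicate 1. Per library, the mean log2 CPM of the kynurenine branch, set against the mean of the controls, was 0.03, 0.72 and 0.49 in DEHP replicates 1 to 3 and -0.33, 0.07 and 0.26 in control replicates 1 to 3. For the tyrosine branch it was 0.21, 0.22 and 0.17 under DEHP and -0.33, 0.02 and 0.30 in controls. Both branches were lowest in control replicate 1 and highest among controls in control replicate 3. The kynurenine branch less the tyrosine branch stood at -0.18, 0.50 and 0.32 under DEHP and at -0.01, 0.05 and -0.04 in controls. DEHP replicate 1 was below every control, and the other DEHP libraries were above every control.

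**Figure D2:**
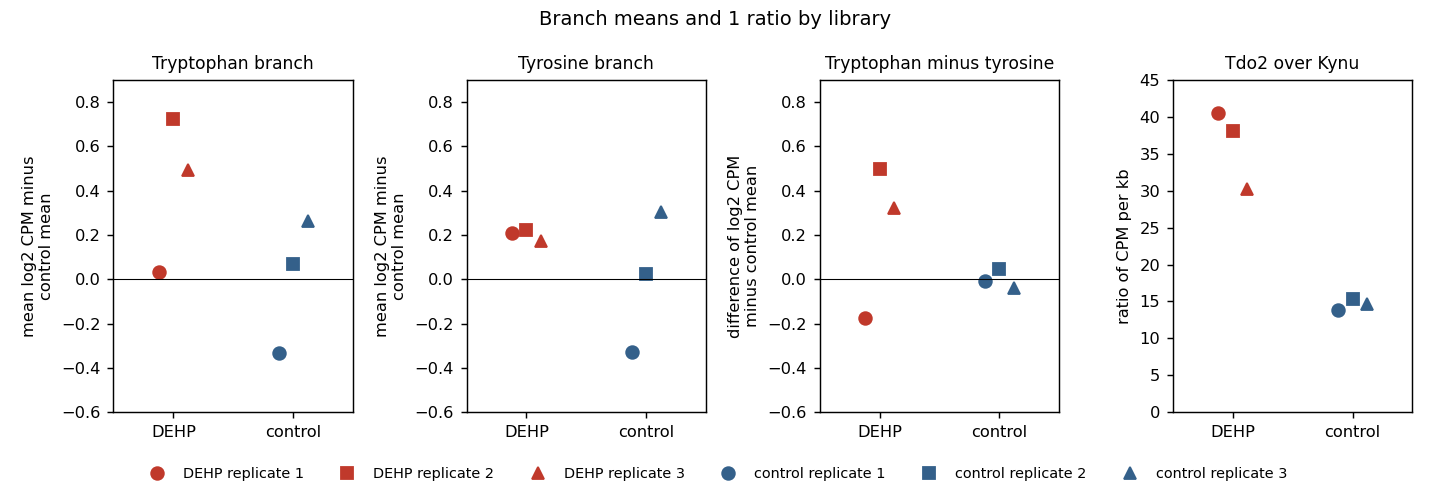
Mean log2 CPM of each branch and their difference, each relative to the control mean (vertical axes, log2 units), and the ratio of Tdo2 to Kynu in CPM per kb, for 3 DEHP and 3 control libraries. The branch difference is within 0.05 of 0 in controls and spreads from -0.18 to 0.50 under DEHP, while the ratio is 30.2 to 40.5 under DEHP and 13.9 to 15.4 in controls.

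The proportions of the enzymes within the kynurenine branch were also set side by side, without a test. Levels of different genes were compared as CPM per kb of the gene length in the table. Of the branch's summed CPM per kb, Tdo2 took 49.0%, 60.9% and 51.5% in DEHP replicates 1 to 3, against 23.0%, 37.2% and 44.9% in control replicates 1 to 3. Haao took 44.7%, 30.2% and 40.3% under DEHP, against 69.4%, 53.8% and 46.3% in controls. Tdo2 and Haao together took most of the sum in every library, so these shares move against each other and are not separate observations, and the level of Haao itself overlapped between the groups. The ratio of Tdo2 to Kynu was 40.5, 38.0 and 30.2 under DEHP, against 13.9, 15.4 and 14.7 in controls, while the highest control was 2.46 times the lowest for Tdo2 alone and 2.32 times for Kynu alone. The ratio of Tdo2 to Tat was 0.431, 0.710 and 0.980 under DEHP, against 0.343, 0.312 and 0.278 in controls. These were picked after their values were seen, out of 7 ratios computed, of which those of Tdo2 to Haao and Kmo to Kynu were also apart between the groups, and none was tested. Of the ratios that were apart, all but that of Kmo to Kynu contain Tdo2, the gene whose own groups were apart.

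The order of levels was much the same in both groups. Hpd had the highest mean, with 1734 ± 297 CPM per kb under DEHP and 1168 ± 287 in controls (SD, n = 3 here and below). Tat had 1129 ± 375 CPM per kb under DEHP and 1166 ± 588 in controls, within its SD of Hpd in controls. Tat was above Hpd in control replicates 2 and 3, and below it in control replicate 1 and every DEHP library. Tdo2 came next under DEHP, at 735 ± 164 CPM per kb, and at 350 ± 145 in controls, where it was below both Haao and Fah. Haao had 514 ± 51.2 CPM per kb under DEHP and 543 ± 49.9 in controls, and Fah had 471 ± 25.1 under DEHP and 514 ± 47.5 in controls. The gap between them was within both SDs in controls, and under DEHP within the SD of Haao but not that of Fah. Hgd had 275 ± 36.2 CPM per kb under DEHP and 222 ± 38.9 in controls, within the SD of Tdo2 in controls. The enzymes in the middle of the kynurenine path and at its branch were far lower. Kmo had 69.0 ± 13.8 CPM per kb under DEHP and 50.2 ± 6.56 in controls. Kynu had 20.6 ± 5.00 CPM per kb under DEHP and 23.7 ± 9.46 in controls. Acmsd had 17.3 ± 9.61 CPM per kb under DEHP, within its SD of Kynu, and 9.27 ± 1.55 in controls.

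**Figure D3:**
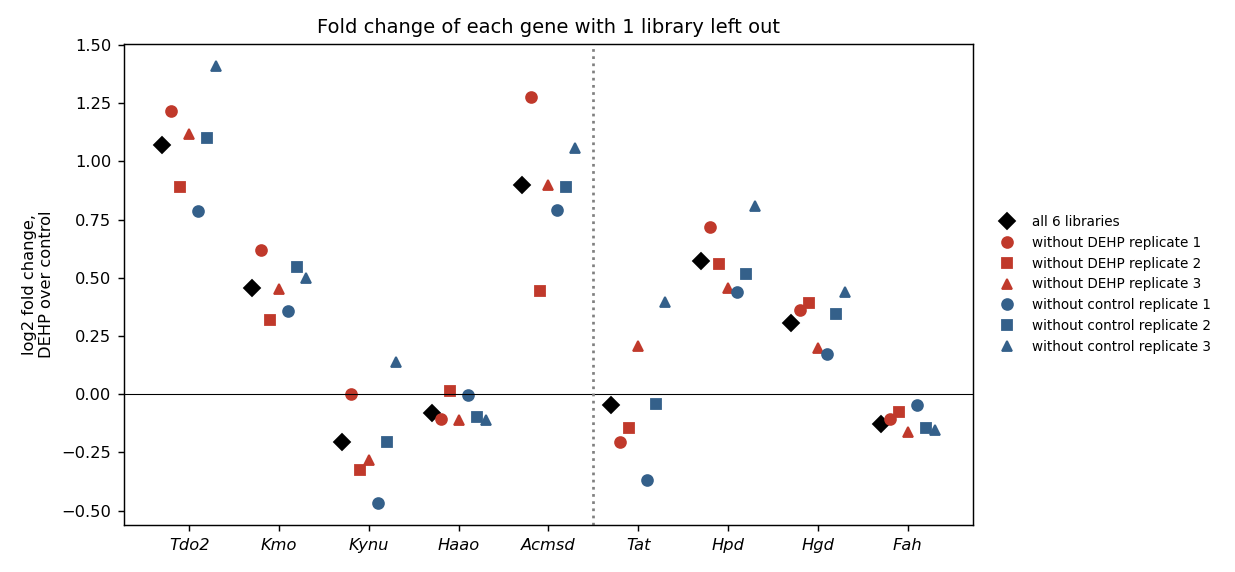
Log2 fold change of each gene, DEHP over control (vertical axis), with all 6 libraries (black) and with 1 library left out (red, a DEHP library; blue, a control library). Tdo2, Kmo, Acmsd, Hpd and Hgd stay above 0 in these fits, Fah stays below 0, and Kynu, Haao and Tat cross it.

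Across the 6 libraries, Tdo2 varied most like Hpd among the members (Pearson's r of log2 CPM 0.91) and least like Fah (-0.91). Kmo and Acmsd were each other's nearest (0.91), as were Haao and Fah (0.87), while the nearest to Tat was Kynu at 0.54. Among all genes tested the closest to Tdo2 were Tmtc2 and Nnt (0.998 and 0.997), to Kmo Mrrf and Ppp1cc (both 0.995), to Kynu Sstr2 and Epb41l1 (0.990 and 0.987), to Haao Clcn7 and Cdk10 (0.996 and 0.994), and to Acmsd Antxr2 and Evi5 (0.998 and 0.997). For Tat they were Slc37a3 and Cep350 (0.995 and 0.988), for Hgd A1cf and Fam122a (0.988 and 0.987), for Fah Stoml1 and Ehd1 (0.998 and 0.994), and for Hpd a gene known only by its identifier and Cxcr3 (0.996 and 0.993). With only 6 libraries, the same for every gene, many genes reach such values, 494 above 0.9 for Tdo2 and 67 for Kynu.

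Around the 9 genes, 5 lists of further pathway genes held 40 genes, of which 36 passed the filter on low counts. None of the 36 passed an adjusted p of 0.05 with edgeR. DESeq2 called 2 of them, among 272 of 12468 genes, and limma-voom 0. At an unadjusted p of 0.05, 8 were higher under DEHP, against 6.11% of all genes tested, and 2 were lower, against 6.97%. The number higher was 3, 3 and 9 without control replicates 1, 2 and 3 in turn. Without DEHP replicates 1, 2 and 3 in turn it was 9, 4 and 6, and the numbers over all genes in these fits are given above. The number lower ran from 1 to 3. The median log2 fold change of the 36 was 0.24.

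Of 7 other kynurenine pathway enzymes tested, all 7 had positive log2 fold changes (median 0.40, against -0.03 over all genes). An unadjusted p under 0.05 was reached by 2 of them, against 6.11% of all genes tested as higher. Afmid, the formamidase that follows Tdo2, had 53.4, 59.7 and 75.4 CPM under DEHP, against 41.7, 39.6 and 55.6 CPM in controls, and a log2 fold change of 0.46 ± 0.21 (SE, adjusted p = 0.373). Aadat, an aminotransferase that makes kynurenic acid, had 86.1, 160.1 and 122 CPM under DEHP, against 70.3, 75.5 and 92.8 CPM in controls, and 0.63 ± 0.23 (adjusted p = 0.296). In each of these, 1 DEHP library fell within the controls. Ido1, the dioxygenase that interferon induces, had 0 counts in every library, including the 2 controls with high interferon-stimulated genes.

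Among 10 genes of NAD synthesis from quinolinate and other precursors, the median was -0.03 (-0.13 to 0.093 with 1 library left out, positive without control replicate 2 or DEHP replicate 1). At an unadjusted p of 0.05, 1 was higher, against 6.11% of all genes tested, and 2 were lower, against 6.97%. Naprt, which admits nicotinic acid, had 185, 127 and 169 CPM under DEHP, against 307, 257 and 220 CPM in controls (log2 fold change -0.70 ± 0.21, SE, adjusted p = 0.210). Nadsyn1, which completes NAD from both quinolinate and nicotinic acid, had 34.1, 25.1 and 30.9 CPM under DEHP, against 54.1, 36.3 and 45.2 CPM in controls (-0.59 ± 0.21, adjusted p = 0.282). Groups did not overlap for either gene, with DEHP below, as for 8.57% of all genes tested. Nadk2, the mitochondrial NAD kinase, had 143, 176 and 123 CPM under DEHP, against 94.1, 122 and 107 CPM in controls (0.45 ± 0.20, adjusted p = 0.371). The groups of Nadk2 did not overlap either, with DEHP above, as for 9.17% of all genes tested. Its lowest DEHP library had 123.0 CPM and its highest control 122.5 CPM. Qprt, which commits quinolinate to NAD, had 161, 182 and 183 CPM under DEHP, against 177, 216 and 188 CPM in controls (-0.14 ± 0.18, adjusted p = 0.782).

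Of other genes of phenylalanine and tyrosine breakdown and of the cofactor tetrahydrobiopterin, 9 were tested (median 0.22). At an unadjusted p of 0.05, 2 were higher, Gch1 among them, against 6.11% of all genes tested. Gch1, which begins the synthesis of that cofactor, had 234, 265 and 289 CPM under DEHP, against 129, 169 and 169.9 CPM in controls (0.75 ± 0.19, adjusted p = 0.169, and 0.0157 by DESeq2). Its groups did not overlap, with DEHP above, as for 9.17% of all genes tested. Gstz1, the isomerase between Hgd and Fah, had 643, 813 and 835 CPM under DEHP, against 545, 669 and 612 CPM in controls (0.33 ± 0.19, adjusted p = 0.495).

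**Figure D4:**
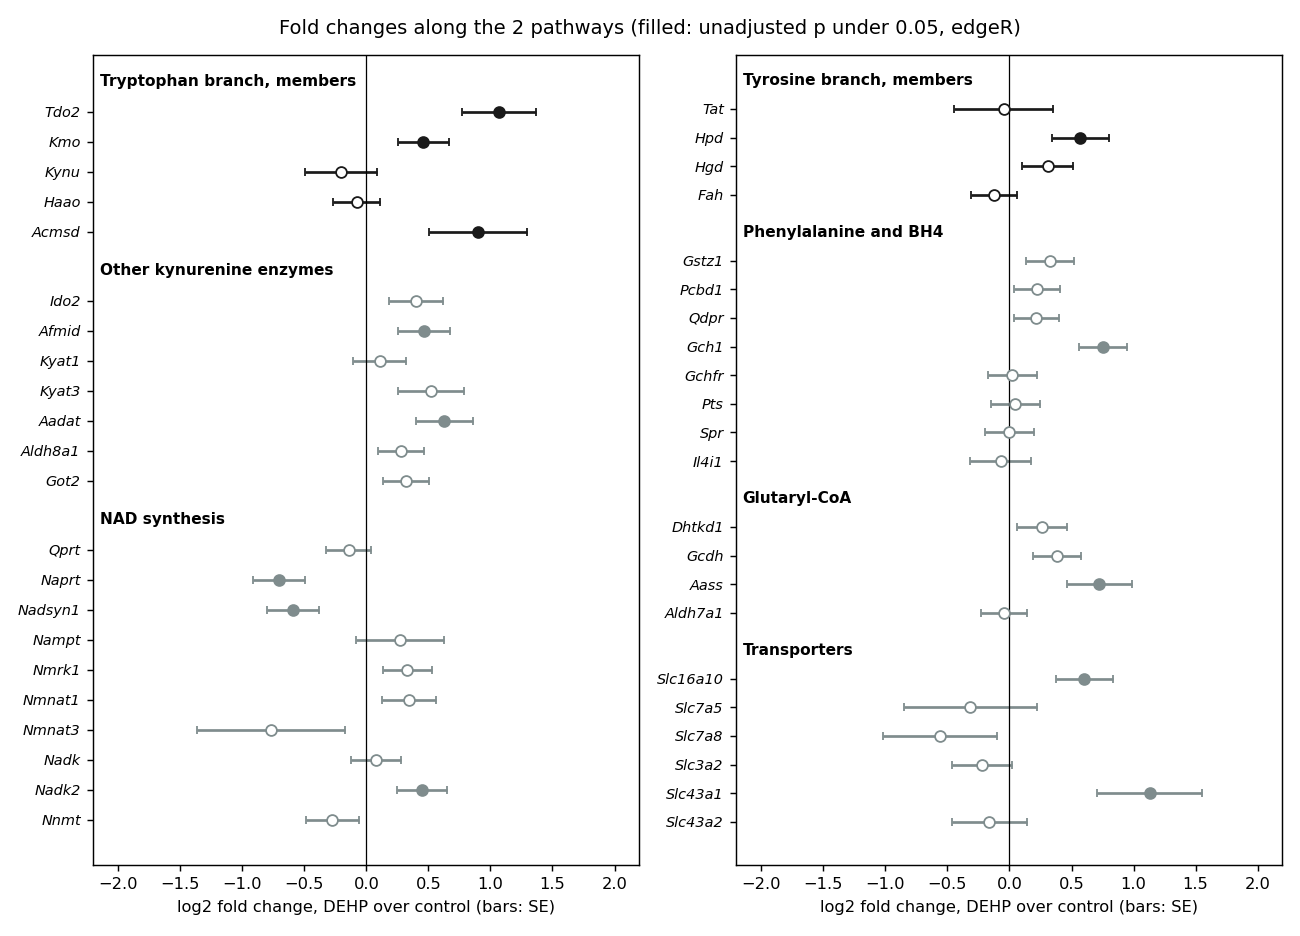
Log2 fold change, DEHP over control, with its SE (horizontal axes) for the 9 genes (black) and for 35 further pathway genes (grey), with filled points for an unadjusted p under 0.05. Tdo2 at 1.07, Acmsd at 0.90 and Gch1 at 0.75 are among the filled points on the right, and Naprt at -0.70 and Nadsyn1 at -0.59 are the filled points on the left.

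Of 4 genes of lysine and glutaryl-CoA breakdown, a path whose later part tryptophan carbon joins after Acmsd, 1 was higher at an unadjusted p of 0.05. Of all genes tested, 6.11% were higher at that threshold. This was Aass, the first enzyme of lysine breakdown, with 348, 522 and 443 CPM under DEHP, against 177, 245 and 372 CPM in controls (0.73 ± 0.26, SE, adjusted p = 0.290). Of 6 amino acid transporters tested, 2 had positive and 4 negative log2 fold changes (median -0.19). The 2 positive ones had an unadjusted p under 0.05, against 6.11% of all genes tested as higher. Slc16a10, an aromatic amino acid carrier, had 137, 156 and 141 CPM under DEHP, against 72.9, 79.7 and 133 CPM in controls (0.60 ± 0.23, adjusted p = 0.312). Slc43a1, a carrier of large neutral amino acids, had 5.67, 21.5 and 17.4 CPM under DEHP, against 8.65, 5.22 and 6.47 CPM in controls (1.13 ± 0.42, adjusted p = 0.315).

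Of the genes that break down other amino acids, 25 were tested (median 0.22, but 0.12 without DEHP replicate 3, 0.35 without DEHP replicate 1 and 0.40 without control replicate 3). None passed an adjusted p of 0.05 with edgeR. At an unadjusted p of 0.05, 7 were higher and 3 lower, against 6.11% and 6.97% of all genes tested. Among the 7 were Oat (log2 fold change 0.60), Dbt (0.55), Ivd (0.47), Cth (0.78), Got1 (0.88) and Gpt2 (0.50), and the 3 were Cbs (-0.76), Agxt (-0.49) and Sdsl (-0.45). Of 11 genes of the glucocorticoid receptor and its targets, a group to which Tdo2 and Tat are also known to respond, 1 was higher at that threshold, G6pc, the glucose-6-phosphatase gene (0.72 ± 0.23, SE, adjusted p = 0.233), and the median was -0.08. That median turned positive when a library was dropped, at 0.14 for control replicate 3, 0.043 for DEHP replicate 3 and 0.0085 for control replicate 1.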

How the data were processed

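Counts per gene in 6 libraries, 3 from DEHP-exposed and 3 from control mouse livers, were read from 1 table. The deposited counts are whole numbers of reads per gene, with no normalization by the authors, and the libraries were made from polyadenylated RNA with a strand-marking kit and sequenced as paired ends, per the labels' protocols. The submitters' processing notes name GRCm38.p6. No source used here states which aligner or counting program was used, or whether strand was used, and the identifiers are those of the C57BL/6NJ strain annotation. The table's 1284 rows without a gene name took 2.73% to 4.28% of counts and stayed out of library sizes and tests. The table's columns are named Control and High with numbers 1 to 3, while the titles say only with or without DEHP, so High was read as the exposed group and its numbers as those of the titles. The series' design text describes another assay in a human cell line and was not used to group samples.

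The count test was edgeR's (version 4.0.16, R 4.3.3; filterByExpr, minimum count 10, TMM scaling, robust quasi-likelihood test, 2-sided, Benjamini-Hochberg over 12468 genes, threshold 0.05). Standard errors come from the F statistic. CPM use TMM-scaled totals of the genes tested, and log2 CPM a prior count of 2. Alternatives were DESeq2 1.42.0, limma-voom (limma 3.58.1), RLE scaling, testing without a filter, a filter at a mean of 1 CPM, no robust step, a replicate block, each library left out, and control replicates 1 and 2 both left out. The tests were checked on simulated counts. Libraries of a group differed by far more than sampling noise (lowest ratio of chi-square to its degrees of freedom 30.6), and each counted as 1 sample.

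The 9 genes and the gene lists were chosen with earlier results of these data known. Named genes are the 9, the genes of each pathway list with an unadjusted p under 0.05, and for likeness the 2 genes with the largest r. Some genes and sequences that meet these rules are not reported here. Ido1, Qprt and Gstz1 were added after their values were seen. Interferon, PPARalpha and cell type lists are given as sums or counts. Markers of T, B and NK cells (3 of 11 tested, summed level 1.57 to 5.86 CPM under DEHP and 1.51 to 4.35 CPM in controls), neutrophils (2 of 6, 2.27 to 4.25 and 2.57 to 7.30), stellate cells (8 of 8, 105 to 184 and 163 to 215), endothelium (7 of 7, 144 to 270 and 248 to 319), bile ducts (5 of 6, 47.6 to 65.8 and 32.7 to 81.8) and pancreas (2 of 6 with a row, 12.0 to 16.6 and 11.7 to 16.0) were also summed.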

Additional observations from a re-analysis of the deposited data

How the results depend on the processing

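No gene of the 9 reversed under DESeq2, RLE scaling, no filter, a filter at a mean of 1 CPM or a fit without the robust step. Genes past an adjusted p of 0.05 numbered 9 (7 higher, 2 lower). They numbered 496 with no filter (220 and 276), 272 with DESeq2 (117 and 155), 2 with limma-voom (2 and 0; 1598 at an unadjusted p of 0.05), and 0 without control replicates 1 and 2 (0 and 0; edgeR, 642 at an unadjusted p of 0.05), where the lone control is assumed to vary like the DEHP libraries. Leaving out 1 library gave 5 to 400 (4 to 122 higher, 0 to 278 lower). Of the 9 genes 2 passed with no filter, Tdo2 (1.10, adjusted p = 1.26e-04) and Acmsd (0.93, 0.00426), 1 with DESeq2 (Tdo2, 1.09), and 0 to 1 with 1 library left out. The fit with no filter gave the 9 genes nearly the same SE, 0.21 (Haao) to 0.23 (Acmsd), against 0.19 (Fah) to 0.40 (Tat) in the main fit. Its adjusted p-values thus reflect little of each gene's own spread. Of the further pathway genes 4, all higher, passed with no filter, 2 with DESeq2 and 0 to 3 with 1 library left out, 3 of them without control replicate 3 (Aass and Slc16a10 among them). With 1 library left out, log2 fold changes ran from 0.79 to 1.41 for Tdo2, -0.47 to 0.14 for Kynu, -0.37 to 0.40 for Tat and -0.11 to 0.012 for Haao, and Kynu was 0.0024 without DEHP replicate 1. Tat was 0.029 with limma-voom, and Haao 0.041 without control replicates 1 and 2. The tyrosine branch median ran from 0.063 to 0.42, and list medians from 0.25 to 0.47 (other kynurenine enzymes), -0.23 to -0.0085 (transporters) and -0.18 to 0.14 (glucocorticoid targets). Without control replicates 1 and 2, list medians were 0.21 (other kynurenine enzymes), 0.088 (glutaryl-CoA), 0.30 (interferon-stimulated genes) and 0.19 (PPARalpha targets). The cause of these changes was not tested.

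Titles give both groups replicate numbers 1 to 3. Deviations of same-numbered libraries correlated at -0.02, 0.06 and -0.03. With 3 libraries a group, these values cannot show whether same-numbered libraries shared a batch or a pairing. With the replicate block, 1 gene passed as lower and Tat was 0.039, and no call among the 9 genes changed. Counting error is small at these depths, and the spread among 3 libraries limits the precision.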
